A study of Homo sapiens with 8 samples.

Results

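The human mitochondrial ribosomal protein genes were taken as every gene symbol made of MRPL or MRPS, a number and an optional A, B or C. The rule found 76 genes among the 40693 symbols of the tables, 47 starting MRPL and 29 starting MRPS, and left out their pseudogenes. They came from 78 entries, because MRPL30 and MRPS17 had a second Ensembl entry each, of which the one with more counts over all 8 libraries was used. Every gene had at least 132 counts in every library, and all 76 passed the filter on low counts. By present knowledge 1 symbol does not name a ribosomal protein: MRPS36, once counted as a small-subunit protein, was later assigned to the oxoglutarate dehydrogenase complex.

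Mitochondria translate the few proteins that their own DNA encodes, all of them subunits of the oxidative phosphorylation complexes, on a ribosome of their own. The ribosomal RNAs of that ribosome are made inside the organelle, while each of its proteins is encoded in the nucleus, made in the cytosol and imported. Some of the proteins have counterparts in the bacterial ribosome and others are found only in mitochondria, and symbols starting MRPL mostly name large-subunit and MRPS mostly small-subunit proteins.

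RNA sequencing compared 4 groups of cultured cells. SW620 carrying the hairpin shFOXA2 had 3 libraries and SW620 carrying the control hairpin shNC had 3, and untreated SW620 and untreated SW480 had 1 library each. SW480 and SW620 are established human colorectal adenocarcinoma lines, labelled Dukes' type B (SW480) and Dukes' type C (SW620). The hairpins were expressed from a lentiviral U6 vector with a puromycin resistance gene and mCherry, and stable populations were selected with puromycin. The labels list 2 target sites in FOXA2, a pioneer transcription factor of endoderm, and do not say in words which of them the shFOXA2 libraries carry. The labels leave unsaid if replicates were separate infections or cultures, so p-values measure only the spread between these libraries.

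Total counts were 7478411 to 12068790 in the shFOXA2 libraries and 12133652 to 13076566 in the shNC libraries, against 95935348 in untreated SW620 and 72323506 in untreated SW480. FOXA2 averaged 27.2 ± 4.39 CPM (the count scaled to library size with TMM) in shFOXA2 and 51.0 ± 1.85 CPM in shNC (SD, n = 3 each), a log2 fold change of -0.91 (edgeR adjusted p = 6.88e-10). Of 10 colon epithelium markers, 9 reached 1 CPM in some library, and their summed level was 7000.4 to 7388 CPM in shFOXA2 and 6807 to 7469 CPM in shNC. The keratins KRT8 (34461 to 63043 counts) and KRT18 (15361 to 25043 counts) were the highest of them in the hairpin libraries. Over all libraries VIL1 had 1623 to 16460 counts, CDX2 294 to 4150, LGALS4 5 to 55 and CDX1 0 to 2. KRT20 had 0 counts in SW480. The summed level of 7 fibroblast markers was 16.1 to 21.8 CPM in shFOXA2 and 11.1 to 13.2 CPM in shNC, that of 8 leukocyte markers 16.8 to 21.8 CPM in shFOXA2 and 14.3 to 19.8 CPM in shNC, and the sums of 4 endothelial and 5 hepatocyte markers stayed at or below 5.26 CPM in every library. The collagen genes COL1A2 and COL3A1, the B cell gene MS4A1 and the hepatocyte gene TTR were at 0 counts in all 8 libraries. Other markers were detected: COL1A1 had 22 to 218 counts and the macrophage gene CD68 95 to 585 counts per library, and LUM, a fibroblast proteoglycan gene, had 93 to 715 counts in the SW620 libraries, with or without a hairpin, and 0 in SW480. The part of these levels in the results was not tested.

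The following promoters are shown because their genes had the 3 largest falls and the 2 largest rises between the hairpin groups. Each line gives the 250 bases before and the 50 bases after the start annotated by RefSeq on GRCh38.p14, in the direction of transcription, with matches to 7 fixed motifs in capitals. MRPL36 (chr5:1799788-1800087, minus strand) holds, in order, GCGCANGCG of the NRF1 type, the E-box CACGTG and AAGATGGCG of the YY1 type, the first and last read on the other strand. MRPS12 (chr19:38930694-38930993, plus strand) holds 4 CCAAT boxes and 1 ETS-type CCGGAAG. MRPS34 (chr16:1773085-1773384, minus strand) holds CCGGAAG 3 times on the other strand. MRPL17 (chr11:6683291-6683590, minus strand) holds GCGCANGCG at 2 places, at the first of them on both strands, and TGTTTNC of the forkhead (FOX) type at 2 places on the other strand, the first of which shares bases with GCGCANGCG. MRPL16 (chr11:59810729-59811028, minus strand) holds 1 CCAAT box and 1 CCGGAAG, both on the other strand. For MRPL36 and MRPS12, GENCODE annotates an outer start upstream of the window shown.
MRPL36: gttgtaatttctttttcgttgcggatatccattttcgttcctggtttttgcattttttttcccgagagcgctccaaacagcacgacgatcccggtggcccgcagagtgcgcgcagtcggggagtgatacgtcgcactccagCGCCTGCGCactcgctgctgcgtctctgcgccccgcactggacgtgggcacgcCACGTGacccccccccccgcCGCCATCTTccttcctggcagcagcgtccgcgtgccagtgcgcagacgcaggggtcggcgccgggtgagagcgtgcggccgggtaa
MRPS12: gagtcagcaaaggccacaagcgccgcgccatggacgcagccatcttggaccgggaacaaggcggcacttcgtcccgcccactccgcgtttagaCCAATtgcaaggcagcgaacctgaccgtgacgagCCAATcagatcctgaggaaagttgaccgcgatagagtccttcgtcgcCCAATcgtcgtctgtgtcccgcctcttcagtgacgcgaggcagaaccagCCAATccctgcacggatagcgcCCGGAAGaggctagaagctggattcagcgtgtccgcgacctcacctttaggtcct
MRPS34: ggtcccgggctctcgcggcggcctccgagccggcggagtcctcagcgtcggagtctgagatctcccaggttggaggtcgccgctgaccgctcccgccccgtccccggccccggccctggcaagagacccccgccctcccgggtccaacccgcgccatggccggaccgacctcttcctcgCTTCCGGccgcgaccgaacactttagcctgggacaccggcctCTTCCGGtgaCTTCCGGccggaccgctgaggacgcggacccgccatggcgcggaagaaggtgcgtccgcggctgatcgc
MRPL17: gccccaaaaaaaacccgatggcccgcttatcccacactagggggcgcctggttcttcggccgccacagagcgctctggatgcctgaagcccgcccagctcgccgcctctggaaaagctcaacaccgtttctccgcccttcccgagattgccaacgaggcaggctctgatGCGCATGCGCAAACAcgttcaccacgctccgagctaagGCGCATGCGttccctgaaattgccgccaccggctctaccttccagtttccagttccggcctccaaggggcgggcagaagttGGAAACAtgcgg
MRPL16: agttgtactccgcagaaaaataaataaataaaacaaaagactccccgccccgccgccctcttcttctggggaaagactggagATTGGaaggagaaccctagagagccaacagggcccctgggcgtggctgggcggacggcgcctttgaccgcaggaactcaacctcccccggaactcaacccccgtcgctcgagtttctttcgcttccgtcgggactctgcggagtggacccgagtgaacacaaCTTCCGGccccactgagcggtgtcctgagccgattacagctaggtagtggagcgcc

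Promoters of 67 of the 76 genes matched by symbol, and all were searched for the 7 motifs. The ETS-type CCGGAAG, the sequence bound by factors such as GABPA, stood in 41.8% of them (28), against 18.6% of the 10184 tested genes with a promoter. The YY1-type AAGATGGCG stood in 19.4% (13), against 3.89%. GCGCANGCG, the core of the sites of nuclear respiratory factor 1 (NRF1), stood in 17.9% (12), against 14.4%. At least 1 of these 3 motifs was present in 64.2% (43 promoters), against 32.2%. The CCAAT box was found in 29.9%, against 36.6%, CACGTG in 8.96%, against 9.996%, and the cAMP response element TGACGTCA in none, against 3.11%. TGTTTNC, the core that forkhead factors such as FOXA2 bind, stood in 10.4% (7), against 12.5%. Both strands were searched, these are matches of letters in that window and not measured binding, and no test was made of the differences.

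Levels between genes were compared per length, as TMM-scaled RPKM. Averaged over the 6 hairpin libraries, the genes ran from 5.28 to 115 RPKM with a median of 24.4 RPKM, a 21.9-fold range. MRPL3, the counterpart of bacterial L3 beside the catalytic centre, had the highest mean, with 121 ± 5.28 RPKM in shFOXA2 and 109.5 ± 4.23 RPKM in shNC (SD, n = 3 each). MRPS34, a mitochondria-specific small-subunit protein, had 72.8 ± 6.93 RPKM in shFOXA2 and 119 ± 7.53 RPKM in shNC. The next were MRPL51, with 89.7 ± 5.93 RPKM in shFOXA2 and 99.3 ± 1.44 RPKM in shNC, MRPS26, with 79.1 ± 2.62 RPKM in shFOXA2 and 87.9 ± 3.42 RPKM in shNC, and MRPL47, the counterpart of bacterial L29, with 79.0 ± 3.62 RPKM in shFOXA2 and 77.7 ± 1.98 RPKM in shNC. MRPL51 and MRPS26 are both specific to mitochondria.

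At the other end, MRPL46, a mitochondria-specific protein of the large subunit, had 5.09 ± 0.126 RPKM in shFOXA2 and 5.48 ± 0.1004 RPKM in shNC, and MRPL22, a protein of the peptide exit tunnel, had 5.09 ± 0.519 RPKM in shFOXA2 and 5.80 ± 0.365 RPKM in shNC. MRPL46 and MRPL22 did not differ beyond their spread. MRPS18C had 8.97 ± 0.0495 RPKM in shFOXA2 and 9.83 ± 0.667 RPKM in shNC, MRPL48 9.33 ± 0.497 RPKM in shFOXA2 and 9.73 ± 0.287 RPKM in shNC and MRPS11 9.57 ± 0.542 RPKM in shFOXA2 and 10.7 ± 0.817 RPKM in shNC. Within shFOXA2 the mean ± SD of MRPL48 overlapped with those of MRPS18C and MRPS11, while those of MRPS18C and MRPS11 did not overlap. In the untreated lines MRPL46 was again low, at 3.26 RPKM in SW620 and 3.27 RPKM in SW480. Those libraries were scaled apart from the hairpin libraries, so levels are not compared across the 2 sets.

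**Figure D1:**
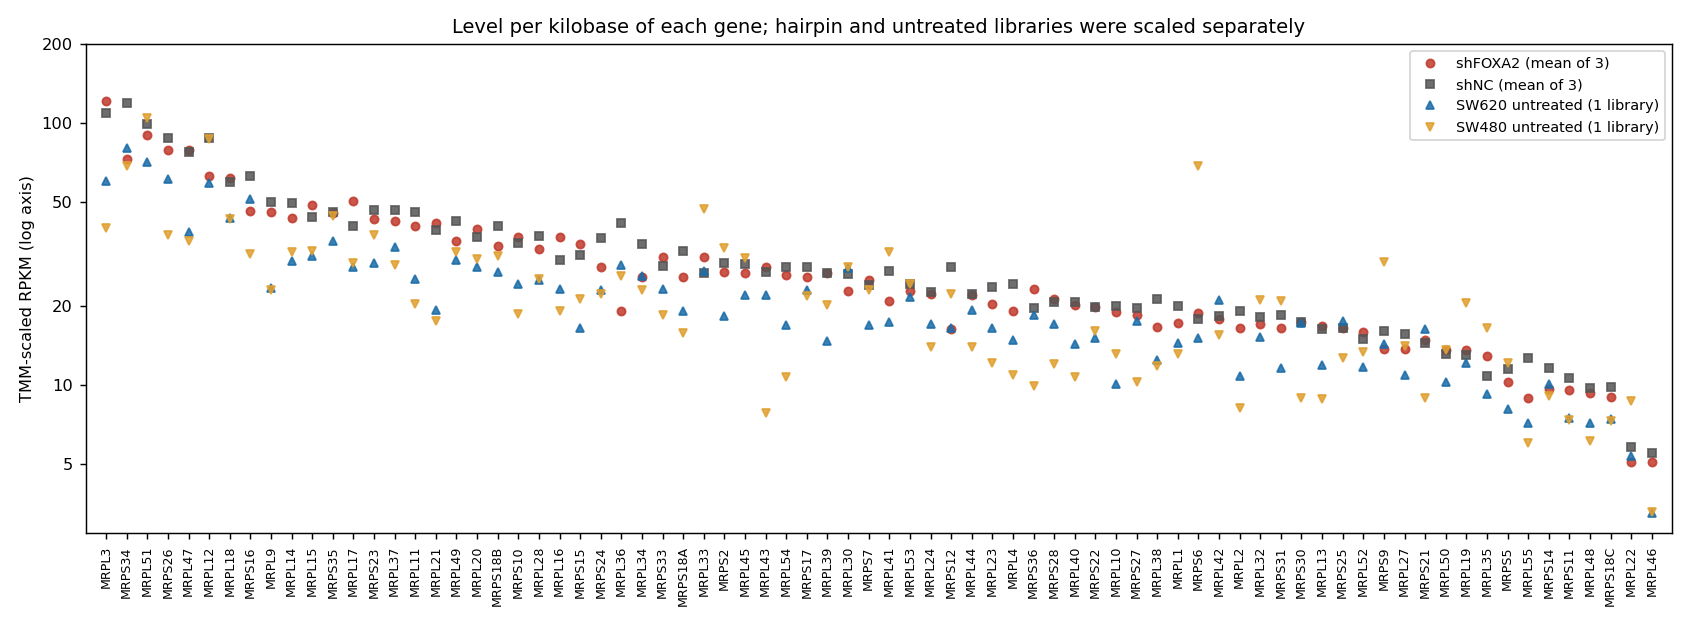
Level per kilobase of each of the 76 genes, as TMM-scaled RPKM on a log axis, ordered by the mean of the 6 hairpin libraries. Red circles are means of 3 shFOXA2 libraries, grey squares means of 3 shNC libraries, and triangles the single untreated SW620 (blue) and SW480 (orange) libraries. MRPL3 at 115 RPKM and MRPL46 at 5.28 RPKM mark the ends, and MRPS6 and MRPL43 show the widest gaps between the 2 untreated lines.

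The comparison of shFOXA2 with shNC asked which of these genes moved when FOXA2 was lowered in SW620. Of the 76 genes, 28 fell and 8 rose (edgeR quasi-likelihood test, adjusted p below 0.05 over all 16100 genes tested). The 28 falls were 36.8% of the genes, against 19.8% of all genes tested, and the 8 rises were 10.5%, against 19.2%. Called in either direction were 47.4%, against 39.0%. The median log2 fold change was -0.10, against 0.01 over all genes, and 51 of 76 values lay below 0. Groups did not overlap for 11 genes with shFOXA2 above shNC and for 35 with shFOXA2 below, against 48.7% of all genes tested in either direction.

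Most of the movements were small. A log2 fold change of at least 0.5 in size was found in 4 genes (5.26%), all lower in shFOXA2, against 17% of all genes tested, and the median size was 0.14, against 0.21. The count of rises changed when single libraries were left out. It was 3 without shFOXA2 replicate 2, the shallowest library, and 3 without shNC replicate 3. Over all genes tested, 2768 of 16467 and 2662 of 16452 rose in these fits, against 3095 of 16100 with all libraries. MRPL17, MRPL16 and MRPL35 rose in every fit that left out 1 library. The count of falls was 21 to 28 when each library was left out in turn. In these 6 fits 32.2% to 35.7% of all genes tested were called, against 39.0% with all libraries. The 8 largest falls, and those of MRPL2, MRPL4, MRPL11, MRPL23, MRPL30, MRPL38, MRPL49, MRPS18A, MRPS18B and MRPS24, were called in all 6 of these fits. MRPL9 and MRPS9 lost the call in 4 of them, MRPL1, MRPL14 and MRPS14 in 3, MRPL27 and MRPS5 in 2, and MRPL37, MRPL51 and MRPS26 in 1. The libraries concerned were shFOXA2 replicate 1 (MRPL9, MRPL14, MRPL27, MRPL37, MRPS5), shFOXA2 replicate 2 (MRPL1, MRPL9, MRPS9, MRPS14), shFOXA2 replicate 3 (MRPL1, MRPL14, MRPL51, MRPS9, MRPS14), shNC replicate 1 (MRPL9, MRPS9), shNC replicate 2 (MRPL1, MRPL9, MRPL27, MRPS5, MRPS9, MRPS14, MRPS26) and shNC replicate 3 (MRPL14).

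**Figure D2:**
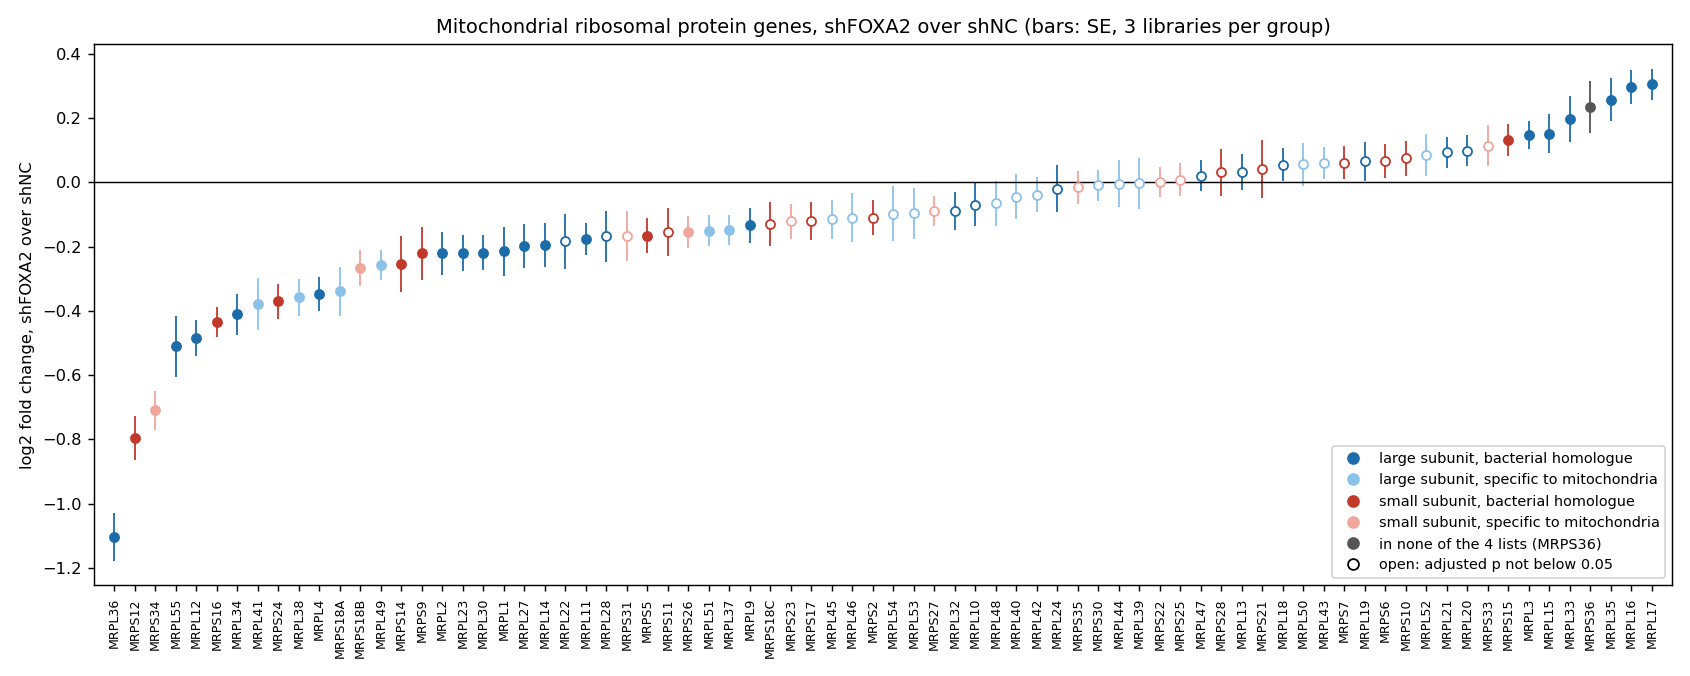
Log2 fold change, shFOXA2 over shNC, of each of the 76 genes in order of size, with bars of 1 SE and 3 libraries per group. Filled points have an adjusted p below 0.05 and colours give the subunit and whether the protein has a bacterial counterpart. The points run from -1.10 (MRPL36) to 0.31 (MRPL17), and 51 lie below 0.

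Among the 30 large-subunit proteins with bacterial counterparts, 13 genes fell (43.3%) and 6 rose (20%), with a median log2 fold change of -0.11. The shares over all genes tested were 19.8% and 19.2%. MRPL36 (ENSG00000171421.8, chr5:1798386-1801366 on GRCh38), the counterpart of L36, one of the smallest proteins of the bacterial ribosome, had 29.6, 26.7 and 23.9 CPM in the shFOXA2 libraries, against 56.4, 57.7 and 58.7 CPM in the shNC libraries. All 3 shFOXA2 values were well below all 3 shNC values, and the log2 fold change was -1.10 (adjusted p = 5.94e-16, SE 0.07), the largest among the 76 genes. Expression in shFOXA2 was 53.6% below shNC. MRPL12, which forms the stalk that recruits translation factors, had 64.5, 69.1 and 59.1 CPM in the shFOXA2 libraries, against 89.5, 89.2 and 90.2 CPM in the shNC libraries. The groups did not overlap, and its log2 fold change was -0.49 (adjusted p = 1.46e-09, SE 0.06).

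MRPL55, a low-level gene of this group, had 16.1, 17.9 and 16.4 CPM in the shFOXA2 libraries, against 22.2, 24.6 and 24.6 CPM in the shNC libraries, with a log2 fold change of -0.51 (adjusted p = 2.52e-05, SE 0.10). MRPL34, the counterpart of L34, had 43.6, 44.1 and 43.3 CPM in the shFOXA2 libraries, against 54.8, 58.9 and 60.2 CPM in the shNC libraries. Its 3 shFOXA2 values lay within 1 CPM of each other, below the lowest shNC library, and the log2 fold change was -0.41 (adjusted p = 1.2e-06, SE 0.06). Smaller falls were called for MRPL4 (-0.35), MRPL2 (-0.22), MRPL23 (-0.22), MRPL30 (-0.22), MRPL1 (-0.21), MRPL27 (-0.20), MRPL14 (-0.20), MRPL11 (-0.18) and MRPL9 (-0.13). MRPL9 was at the threshold (adjusted p = 0.0498), and its groups overlapped.

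Of the 8 rises, 6 were in the same class of proteins, 20% of its 30 genes, against 19.2% of all genes tested. MRPL17 (ENSG00000158042.8, chr11:6680782-6683401) had 111, 119 and 112 CPM in the shFOXA2 libraries, against 95.5, 88.2 and 92.9 CPM in the shNC libraries. Every shFOXA2 library was above every shNC library, and the log2 fold change was 0.31 (adjusted p = 1.49e-06, SE 0.05). MRPL16, whose bacterial counterpart contacts the incoming transfer RNA, had 82.1, 84.9 and 83.9 CPM in the shFOXA2 libraries, against 68.6, 67.7 and 67.9 CPM in the shNC libraries, a log2 fold change of 0.30 (adjusted p = 1.05e-05, SE 0.05). The 3 values of each group were within 3 CPM of each other. MRPL35, the counterpart of L35, had 50.9, 50.02 and 47.8 CPM in the shFOXA2 libraries, against 39.1, 43.3 and 42.0 CPM in the shNC libraries, a log2 fold change of 0.26 (adjusted p = 0.00208, SE 0.07).

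The other rises were smaller and less stable. MRPL33 averaged 47.4 ± 3.62 CPM in shFOXA2 and 41.2 ± 1.68 CPM in shNC (SD, n = 3 each), with a log2 fold change of 0.20 (adjusted p = 0.0226, SE 0.07). MRPL15 averaged 57.8 ± 1.61 CPM in shFOXA2 and 52.0 ± 1.15 CPM in shNC (SD, n = 3 each), with a log2 fold change of 0.15 (adjusted p = 0.0447, SE 0.06). MRPL3, the highest of the genes per length, averaged 329.6 ± 14.3 CPM in shFOXA2 and 297 ± 11.5 CPM in shNC (SD, n = 3 each), with a log2 fold change of 0.15 (adjusted p = 0.00601, SE 0.04). The groups did not overlap for any of the 3, but MRPL15 was not called in any fit that left out a library, and MRPL3 was not called without shFOXA2 replicate 2 or without shNC replicate 3. MRPL33 was not called without shFOXA2 replicate 2, shNC replicate 2 or shNC replicate 3.

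None of the 19 large-subunit proteins specific to mitochondria rose, and 6 of their genes fell (31.6%), with a median of -0.10. Over all genes tested, 19.2% rose and 19.8% fell. MRPL41 had 27.4, 26.7 and 25.3 CPM in the shFOXA2 libraries, against 35.9, 34.7 and 32.6 CPM in the shNC libraries. The groups did not overlap, and the log2 fold change was -0.38 (adjusted p = 0.000173, SE 0.08). The other falls were MRPL38 (-0.36), MRPS18A (-0.34), MRPL49 (-0.26), MRPL51 (-0.15) and MRPL37 (-0.15). The remaining genes of this class, which were not called, ran from -0.12 (MRPL45) to 0.09 (MRPL52).

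**Figure D3:**
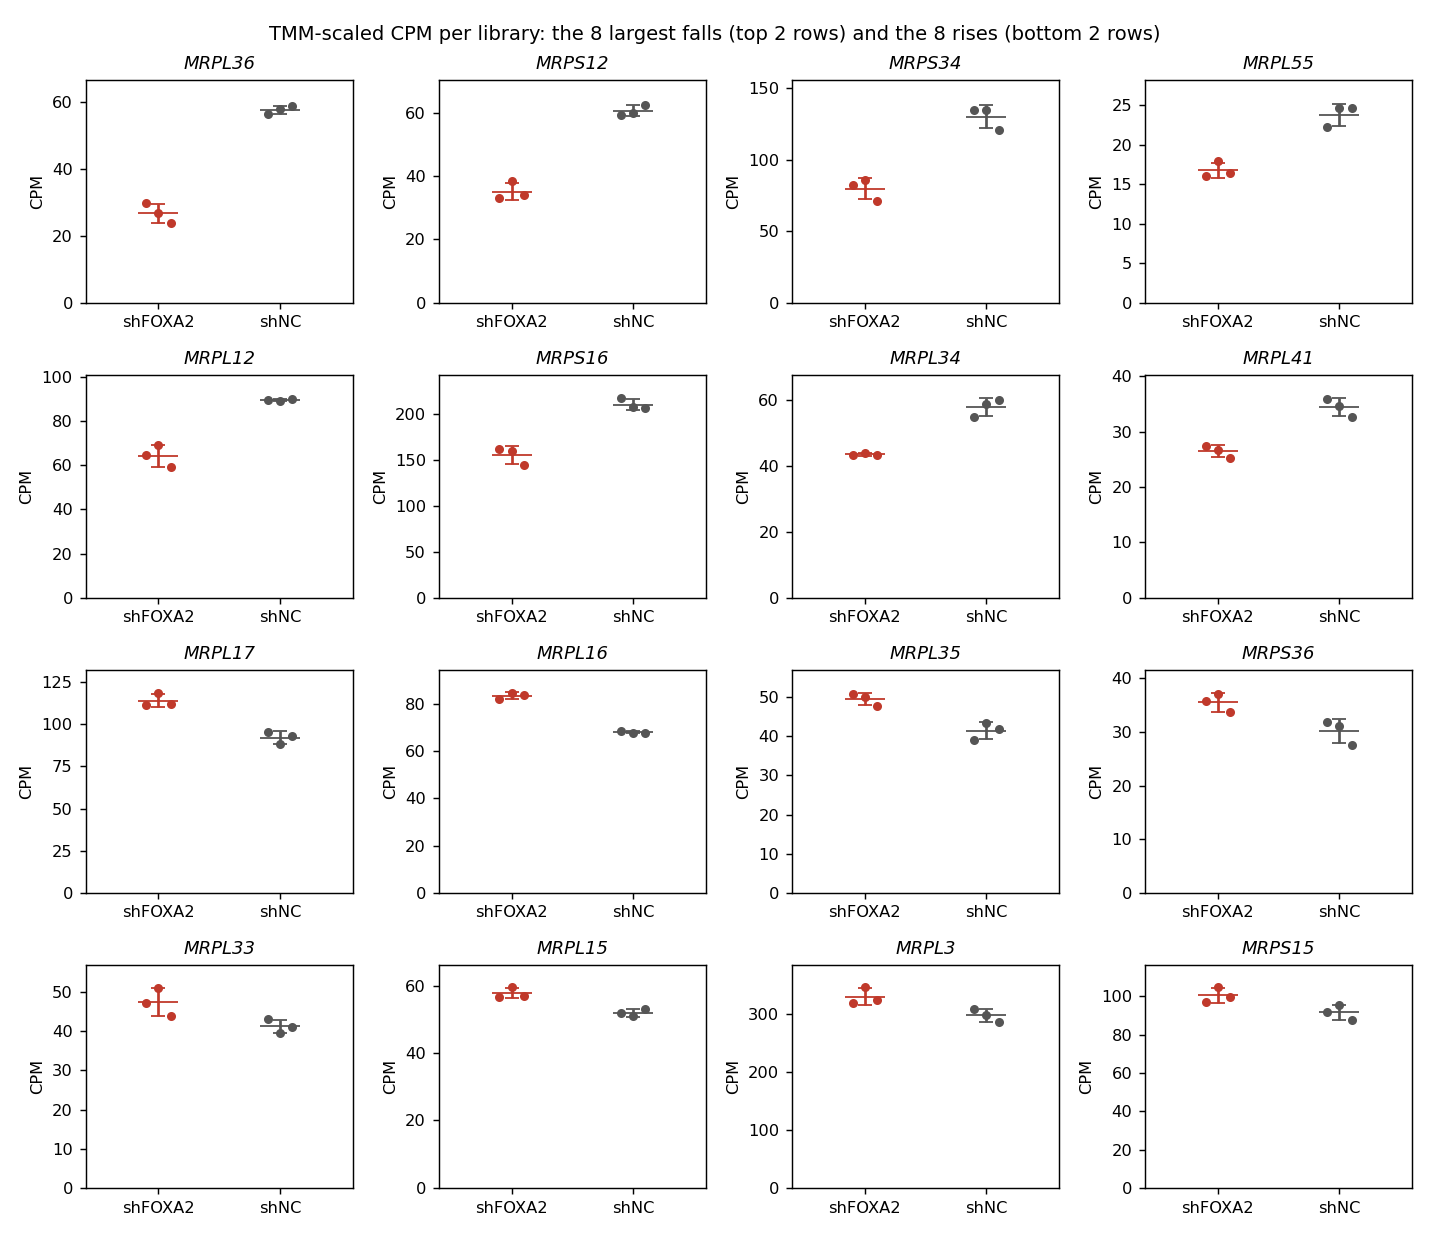
TMM-scaled CPM in each library for the 8 largest falls (upper panels) and the 8 rises (lower panels), with shFOXA2 in red left of shNC in grey. Each point is 1 library, and lines and bars give the mean and SD of 3. In every panel the groups do not overlap, and relative to its level the gap is widest for MRPL36 (26.7 ± 2.87 CPM in shFOXA2 and 57.6 ± 1.17 CPM in shNC).

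Of the 16 small-subunit proteins with bacterial counterparts, 6 genes fell (37.5%) and 1 rose (6.25%), with a median log2 fold change of -0.13. The shares over all genes tested were 19.8% and 19.2%. MRPS12 (ENSG00000128626.7, chr19:38930548-38933162), whose bacterial counterpart S12 lies at the decoding centre, had 33.0, 38.4 and 34.1 CPM in the shFOXA2 libraries, against 59.4, 60.1 and 62.6 CPM in the shNC libraries. The groups were far apart, and the log2 fold change was -0.80 (adjusted p = 6.85e-13, SE 0.07). MRPS16, a counterpart of S16 that is mutated in a recessive deficiency of oxidative phosphorylation, had 163, 159.7 and 145 CPM in the shFOXA2 libraries, against 217, 207 and 207 CPM in the shNC libraries. Every shFOXA2 library was lower, with a log2 fold change of -0.44 (adjusted p = 3.35e-10, SE 0.05). MRPS24 (-0.37), MRPS14 (-0.25), MRPS9 (-0.22) and MRPS5 (-0.17) also fell.

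The single rise of that class was MRPS15, with 97.1, 105 and 99.9 CPM in the shFOXA2 libraries, against 92.0, 95.3 and 87.6 CPM in the shNC libraries and a log2 fold change of 0.13 (adjusted p = 0.0300, SE 0.05), and it was not called without shFOXA2 replicate 2, shFOXA2 replicate 3, shNC replicate 1 or shNC replicate 3. Among the 10 small-subunit proteins specific to mitochondria, 3 genes fell (30%, against 19.8% of all genes tested) and none rose, with a median of -0.11. MRPS34 (ENSG00000074071.9, chr16:1771890-1773155), which is needed for a stable small subunit, had 82.6, 85.7 and 71.3 CPM in the shFOXA2 libraries, against 135, 135 and 121 CPM in the shNC libraries. The highest shFOXA2 value was below the lowest shNC value, and the log2 fold change was -0.71 (adjusted p = 7.72e-09, SE 0.06). MRPS18B (-0.27) and MRPS26 (-0.15) fell by less, and MRPS26 had a log2 fold change of 0.01 (adjusted p = 0.894) once trends with length and GC content were removed. MRPS36, in none of the 4 classes, had 35.8, 37.1 and 33.7 CPM in the shFOXA2 libraries, against 31.8, 31.1 and 27.5 CPM in the shNC libraries, a log2 fold change of 0.24 (adjusted p = 0.0172, SE 0.08), and was not called without shFOXA2 replicate 2 or without shNC replicate 3.

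In the structural groups looked at within the ribosome, every log2 fold change lay below 0, but not every gene was called. In the stalk and its base, MRPL12 fell most, MRPL11, the counterpart of L11, averaged 103 ± 6.58 CPM in shFOXA2 and 116 ± 3.38 CPM in shNC (SD, n = 3 each), a log2 fold change of -0.18 (adjusted p = 0.00326, SE 0.05), and MRPL10, which anchors MRPL12, averaged 52.7 ± 1.89 CPM in shFOXA2 and 55.2 ± 5.35 CPM in shNC (SD, n = 3 each), a log2 fold change of -0.07 (adjusted p = 0.445, SE 0.07). In all, 2 of the 3 stalk genes fell (66.7%, against 19.8% of all genes tested), and the groups overlapped for MRPL10. Of 5 proteins lining the exit tunnel (MRPL22, MRPL23, MRPL24, MRPL44 and MRPL45), MRPL23 alone was called (20%, against 39.0% of all genes tested). The 5 values ran from -0.22 (MRPL23) to -0.00398 (MRPL44). The 3 paralogs named MRPS18 take different places, MRPS18A in the large subunit and the other two in the small subunit. MRPS18A averaged 33.1 ± 2.91 CPM in shFOXA2 and 41.8 ± 1.39 CPM in shNC (SD, n = 3 each) and MRPS18B 63.8 ± 4.15 CPM in shFOXA2 and 76.5 ± 2.84 CPM in shNC (SD, n = 3 each), and both fell (-0.34 and -0.27). MRPS18C, closest to bacterial S18, averaged 43.7 ± 0.241 CPM in shFOXA2 and 47.8 ± 3.24 CPM in shNC (SD, n = 3 each) and was not called, with a log2 fold change of -0.13 (adjusted p = 0.129, SE 0.07).

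The sum over all 76 genes was 5171 ± 133 CPM in shFOXA2 and 5529 ± 73.2 CPM in shNC (SD, n = 3 each), 6.48% lower in shFOXA2. Per library it was 5117, 5323 and 5074 CPM in shFOXA2, against 5594, 5545 and 5450 CPM in shNC, and the groups did not overlap. On the scale per length, the small subunit summed to 723 ± 20.6 RPKM in shFOXA2 and 829.95 ± 15.4 RPKM in shNC, 12.9% lower. The large subunit summed to 1489 ± 48.8 RPKM in shFOXA2 and 1584 ± 14.2 RPKM in shNC, 6.03% lower. Single genes with high levels weigh heavily in such sums: MRPS34 averaged 72.8 RPKM in shFOXA2 and 119 RPKM in shNC. The median log2 fold changes were alike, at -0.13 and -0.11 in the small-subunit classes and -0.11 and -0.10 in the large-subunit classes. These sums are descriptions with no test, and fewer cells carrying a transcript cannot be told apart from less RNA per cell.

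Some of the largest changes lie in genes that share exon sequence with another gene. In the GENCODE annotation, 41 of the 74 genes with a location (all but MRPL45 and MRPS21) overlapped exons of another gene, 29 on the opposite and 16 on the same strand. The library kit was directional, per the labels, but the authors' counting may or may not have used strand, so reads in such overlaps are uncertain. Among the 8 largest falls, MRPS12 shared 16.3% of its exon bases with SARS2 on the opposite strand, and SARS2, the mitochondrial seryl-transfer RNA synthetase, had a log2 fold change of -0.73. MRPL34 shared 13.2% with ABHD8, at -0.90, and MRPS16 14.1% with DNAJC9-AS1, at -0.36. MRPL12 shared 68.2% with a read-through gene on the same strand, AC139530.2, which was not analysed here. MRPS18A shared 47.0% with RSPH9, at -0.35. No such overlap was listed for MRPL36, MRPS34, MRPL55 or MRPL41. Several of these genes also have processed pseudogenes, and reads that match both could have been split between them.

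A bidirectional promoter can serve a pair of genes that start close together on opposite strands, so head-to-head neighbours were compared, by the outermost starts in GENCODE. For 27 genes, another tested gene started within 1000 bases on the opposite strand. Of these 27, 12 fell, and their neighbour fell in 5 cases and rose in 1. Over all 27 neighbours, 5 fell (18.5%) and 2 rose (7.41%), against 19.8% and 19.2% of all genes tested. NDUFS6, a complex I subunit whose start lies 34 bases from the outermost start of MRPL36, averaged 129.6 ± 1.04 CPM in shFOXA2 and 135 ± 4.71 CPM in shNC, a log2 fold change of -0.06 (edgeR adjusted p = 0.347). That start of MRPL36 lies upstream of the promoter window printed above, so NDUFS6 is not the neighbour of the promoter shown. EME2, 52 bases from MRPS34, had a log2 fold change of -0.10 (adjusted p = 0.338). SARS2, next to MRPS12, averaged 24.3 ± 2.25 CPM in shFOXA2 and 40.3 ± 0.845 CPM in shNC, with a log2 fold change of -0.73 (adjusted p = 7.66e-10). The pairs FAU and MRPL49, EME1 and MRPL27, PELI3 and MRPL11, and NCAPD2 and MRPL51 were the other 4 in which both genes fell, PPP1R10 rose beside MRPS18B, and TCP1, a chaperonin subunit gene, rose (0.18, adjusted p = 0.000646) beside MRPL18, which was not called. MRPS11 and MRPL46, both among the 76 genes and starting 34 bases apart, had log2 fold changes of -0.15 and -0.11, and neither was called. That pair counts for 2 of the 27 genes, and across the 26 distinct pairs Pearson's r between the 2 log2 fold changes was 0.35 and Spearman's rho 0.24, a description over pairs that share libraries and, in some cases, exon bases. Among pairs in which both genes fell, such bases were shared by MRPS12 and SARS2 (349), MRPL49 and FAU (282), MRPL11 and PELI3 (119), and MRPL51 and NCAPD2 (486). Reads in them are uncertain for both genes. No shared exon bases were listed for MRPL27 and EME1.

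Genes that fell were richer in GC. Median GC content of the annotated transcripts was 54.6% for the 28 genes that fell, 44.8% for those not called and 45.1% for the 8 that rose. Over the 74 genes with a value, r between GC content and log2 fold change was -0.47 (rho -0.46), and over 15553 tested genes it was -0.18 (rho -0.22). The points share the same 6 libraries, so this is given with no test. With smooth trends in length and GC removed across all genes, 29 genes fell and 5 rose, but the genes were not all the same. Over all 16100 genes tested, 3184 fell and 2702 rose in that fit, against 3185 and 3095 without that step. Of the calls reported here, 23 of 28 falls and 3 of 8 rises were kept, 10 were lost and 8 genes were newly called. Of the 8 largest falls, 7 stayed called, and MRPL41 lost its call with a log2 fold change of -0.07 (adjusted p = 0.532). Either of the 7-base stretches AACACGT and ACACGTA of the first listed hairpin target, which earlier analysis picked on these data, stood in the annotated 3' UTR of 1 of 74 genes (1.35%), MRPS33, against 5.76% of 13063 tested genes. MRPS33 was not called, at 0.11.

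**Figure D4:**
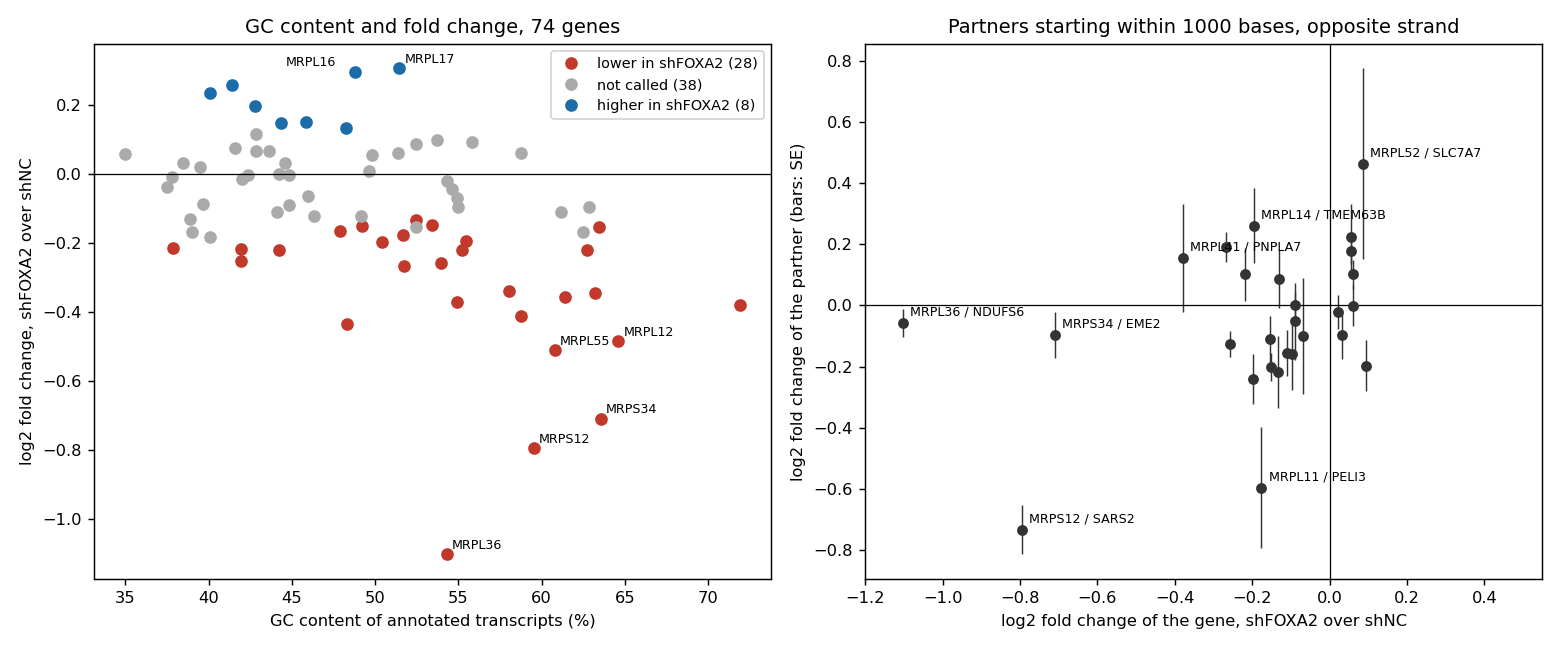
Left, log2 fold change (shFOXA2 over shNC) against GC content of annotated transcripts for 74 genes, coloured by call. The 28 genes that fell have a median of 54.6% GC and the 8 that rose 45.1%. Right, log2 fold change of each of 27 genes against that of the gene starting within 1000 bases on the opposite strand, by outermost GENCODE starts. Bars give 1 SE for that neighbour. MRPS12 and SARS2 lie far down together, and NDUFS6 lies near 0 beside MRPL36.

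Promoter motifs were also counted by call. CCGGAAG stood in 9 of 26 promoters of genes that fell, 16 of 36 of genes not called and 3 of 5 of genes that rose. GCGCANGCG stood in 5 of 26, 6 of 36 and 1 of 5, and AAGATGGCG in 5 of 26, 8 of 36 and 0 of 5. TGTTTNC was found in 0 of 26 promoters of genes that fell, 6 of 36 of genes not called and 1 of 5 of genes that rose, the last being MRPL17, whose sequence is given above. Median log2 fold changes were -0.02 for the 7 genes with TGTTTNC and -0.13 for the others. These counts are small and carry no test.

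Untreated SW620 and SW480 were compared as 1 library each, so the differences have no replicate check and no test. By their median the genes were level between the lines: the log2 ratio, SW620 over SW480, was 0.03, against 0.02 over 21343 genes with at least 20 counts. Their sum was 3989.6 CPM in SW620 and 4164 CPM in SW480, 4.19% lower in SW620. Single genes weigh heavily in this sum too: MRPS6 alone had 64.8 CPM in SW620 and 293 CPM in SW480. At least 1.5-fold higher in SW620 were 8 genes (10.5%), against 16.7% of all genes, and at least 1.5-fold lower were 9 (11.8%), against 17.5%. The 21343 genes were not matched by level to the mitochondrial ribosomal protein genes, which had at least 762 counts in both libraries. At 2-fold only MRPL43 was higher and only MRPS6 and MRPS9 were lower. These counts used log2 ratios with a pseudocount of 1 CPM, by which MRPL3 (0.58) and MRPS5 (-0.58) lay just short of 1.5-fold. The folds that follow carry no pseudocount, and their exact 95% intervals, in brackets, cover counting error only.

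MRPL43, a mitochondria-specific large-subunit protein, had 7654 counts (78.7 CPM) in SW620 and 1990 counts (28.1 CPM) in SW480, 2.80-fold (2.67 to 2.94) higher in SW620. It shares 32.7% of its exon bases with SEMA4G on the opposite strand, which had 5650 counts in SW620 and 402 counts in SW480, so part of its reads are uncertain. MRPS30, a large-subunit protein in spite of its symbol, had 10409 counts (107 CPM) in SW620 and 3920 counts (55.3 CPM) in SW480, 1.93-fold (1.86 to 2.01) higher. MRPS36 had 2750 counts (28.3 CPM) in SW620 and 1071 counts (15.1 CPM) in SW480, 1.87-fold (1.74 to 2.01) higher. The small-subunit genes MRPS21, at 1.85-fold (1.71 to 1.99), and MRPS27, at 1.71-fold (1.65 to 1.77), completed the 5 highest ratios, and MRPS26, at 1.64-fold (1.57 to 1.71), MRPS16, at 1.63-fold (1.59 to 1.68), and MRPL54, at 1.58-fold (1.45 to 1.72), also passed 1.5-fold.

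MRPS6, the counterpart of bacterial S6, had 6309 counts (64.8 CPM) in SW620 and 20778 counts (293 CPM) in SW480, 4.52-fold (4.40 to 4.65) lower in SW620. It shares 6.35% of its exon bases with SLC5A3, a myo-inositol transporter gene on the same strand that had 25010 counts in SW620 and 98202 counts in SW480. In the hairpin libraries, all of them SW620, MRPS6 had 77.2, 82.6 and 83.0 CPM in the shFOXA2 libraries, against 75.5, 77.6 and 78.3 CPM in the shNC libraries, and the groups overlapped. MRPS9 had 2673 counts (27.5 CPM) in SW620 and 3995 counts (56.4 CPM) in SW480, 2.05-fold (1.95 to 2.16) lower in SW620. MRPL41 was 1.85-fold (1.75 to 1.96), MRPS2 1.81-fold (1.74 to 1.88) and MRPS31 1.80-fold (1.71 to 1.91) lower, followed by MRPL35, MRPL33, MRPL19 and MRPL22.

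**Figure D5:**
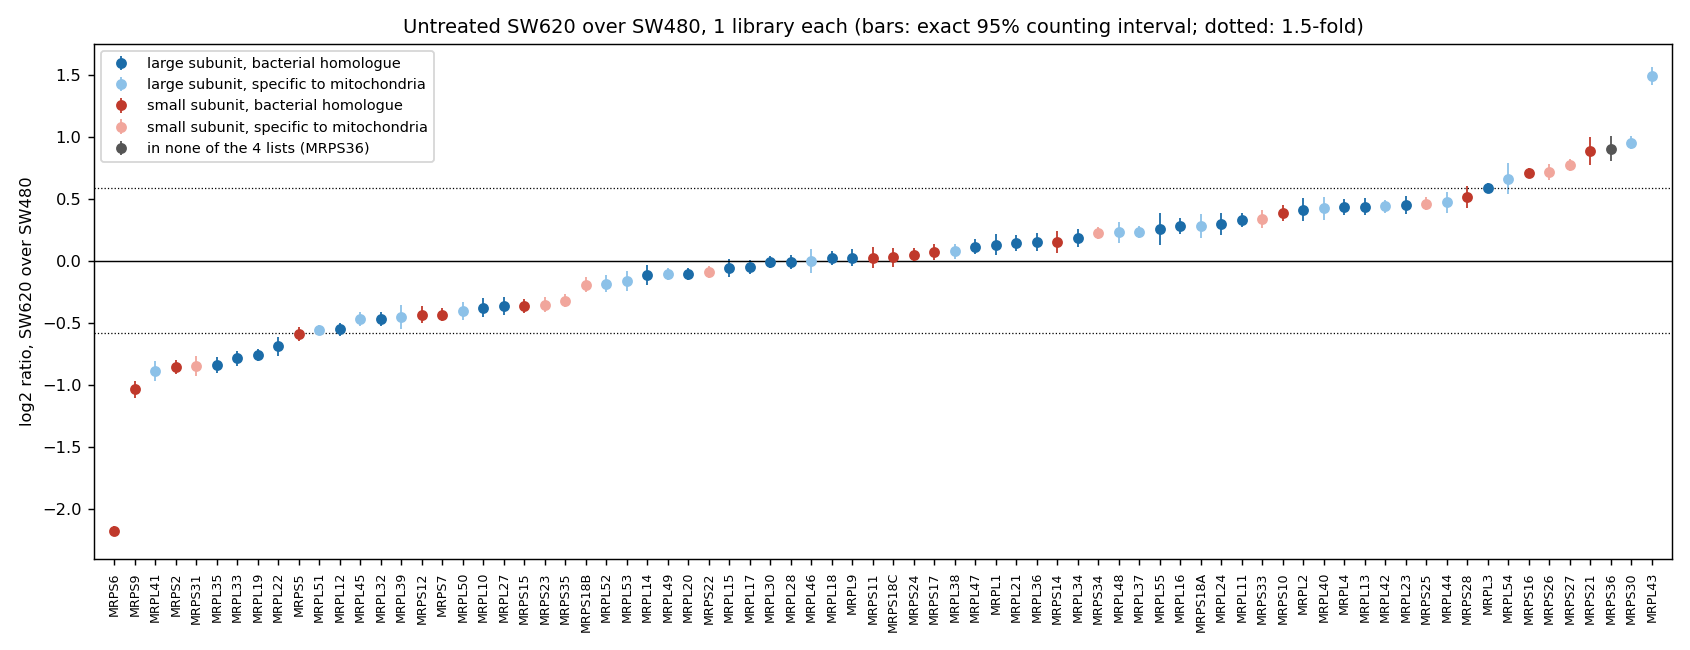
Log2 ratio of TMM-scaled CPM without pseudocount, untreated SW620 over untreated SW480, for the 76 genes in order of size, with exact 95% counting intervals. Dotted lines mark 1.5-fold and colours give the subunit classes. MRPL43 (2.80-fold higher in SW620) and MRPS6 (4.52-fold lower) stand apart from the rest.

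The hairpin changes were then set beside the difference between the lines. Pearson's r between the 2 log2 values was 0.01 and Spearman's rho 0.05 over 76 genes. FOXA2 itself was 18.0-fold higher in SW620 than in SW480 and lower in shFOXA2 than in shNC. MRPL36 had 3910 counts (40.2 CPM) in SW620 and 2564 counts (36.2 CPM) in SW480, 1.11-fold (1.06 to 1.17) higher in SW620, and MRPS34 was 1.17-fold (1.13 to 1.21) higher. MRPS12 was 1.35-fold (1.29 to 1.42) lower in SW620, and MRPL12 1.47-fold (1.42 to 1.52) lower. MRPL35 and MRPL33, which rose in shFOXA2, were 1.79-fold (1.71 to 1.87) and 1.73-fold (1.66 to 1.80) lower in SW620. The 8 libraries do not share controls between these 2 comparisons, but both rest on the same gene annotation and the lines on single libraries.

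Mitoribosomal proteins that go by other symbols were looked at beside these genes. Of 7 in the tables, 4 fell (57.1%) and 1 rose (14.3%), against 19.8% and 19.2% of all genes tested, with a median of -0.18. DAP3, a small-subunit protein that binds GTP, averaged 84.4 ± 1.35 CPM in shFOXA2 and 104 ± 0.953 CPM in shNC (SD, n = 3 each), a log2 fold change of -0.30 (adjusted p = 2.11e-06, SE 0.05). AURKAIP1, also of the small subunit, fell (-0.28, adjusted p = 4.56e-06), as did GADD45GIP1, of the large subunit (-0.32, adjusted p = 5.56e-05), and CHCHD1 (-0.18). PTCD3, a small-subunit protein with pentatricopeptide repeats, was the 1 that rose (0.26, adjusted p = 0.000203).

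The rest of the machinery for mitochondrial translation is given by list. Of 14 translation factors, 3 rose (21.4%) and 1 fell (7.14%), against 19.2% and 19.8% of all genes, with a median of 0.05: the elongation factor GFM1 (0.17), the recycling factor GFM2 (0.32) and the GTPase GUF1 (0.26) rose, and the insertase OXA1L (-0.21) fell. Of 22 ribosome assembly factors, 5 rose and 5 fell (22.7% each), near the shares of all genes, with a median of 0.06. METTL17, which acts on the small subunit, averaged 38.2 ± 1.08 CPM in shFOXA2 and 51.2 ± 4.57 CPM in shNC (SD, n = 3 each) and fell (-0.42, adjusted p = 5.32e-06, SE 0.07), while the large-subunit factors MALSU1 (0.27) and NGRN (0.26) rose.

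Of 18 genes for transcription of mitochondrial DNA and processing of its RNA, 8 rose (44.4%) and 3 fell (16.7%), against 19.2% and 19.8% of all genes, with a median of 0.08. TRMT10C, a subunit of mitochondrial RNase P, averaged 39.7 ± 1.79 CPM in shFOXA2 and 75.0 ± 1.31 CPM in shNC (SD, n = 3 each), a log2 fold change of -0.92 (adjusted p = 2.68e-16, SE 0.06). POLRMT, the mitochondrial RNA polymerase, fell as well (-0.43, adjusted p = 7.64e-09, SE 0.05), and HSD17B10, another RNase P subunit, rose (0.24). Among 10 nuclear regulators of mitochondrial genes, 3 rose (30%) and 1 fell (10%): NRF1 averaged 19.2 ± 1.62 CPM in shFOXA2 and 26.0 ± 1.43 CPM in shNC (SD, n = 3 each), with a log2 fold change of -0.43 (adjusted p = 0.000165, SE 0.09), while ESRRA (0.17), PPRC1 (0.13) and PPARGC1B (0.37) rose. GABPA (0.10) and YY1 (0.04), factors of the ETS-type and YY1-type motifs printed above, were not called.

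The RNAs that the mitochondrial ribosome contains or reads were examined too. Of 15 encoded in mitochondrial DNA, 4 rose (26.7%) and 3 fell (20%), so that 46.7% were called, against 39.0% of all genes, with a median of -0.04 and all values between -0.19 and 0.17. MT-RNR2, the large-subunit ribosomal RNA, averaged 6381 ± 82.8 CPM in shFOXA2 and 5683 ± 119.8 CPM in shNC (SD, n = 3 each) and rose (0.17, adjusted p = 0.000771, SE 0.04), and MT-RNR1, the small-subunit ribosomal RNA, averaged 1217 ± 25.1 CPM in shFOXA2 and 1293 ± 39.2 CPM in shNC (SD, n = 3 each) and was not called (-0.09, adjusted p = 0.0827, SE 0.04). MT-ND3 fell (-0.18) and MT-ND6 rose (0.16), both encoding complex I subunits. Mitochondrial transcripts took 4.66% to 4.76% of counts in shFOXA2 and 4.46% to 4.82% in shNC. In the untreated libraries, which are not compared with the hairpin set, they took 11.1% (SW620) and 11.7% (SW480). There MT-RNR1 stood at 19573 CPM in SW620 and 21484 CPM in SW480, and MT-RNR2 at 33003 CPM in SW620 and 38266 CPM in SW480. In counts, MT-RNR1 had 1904678 and MT-RNR2 3211536 of 95935348 in SW620, and 1522701 and 2712165 of 72323506 in SW480. Per hairpin library, MT-RNR1 had 9010 to 17066 counts and MT-RNR2 47317 to 75337, of totals of 7478411 to 13076566. The part of these ribosomal RNA levels in the rise of MT-RNR2 was not tested.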

How the data were processed

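The deposited tables, 1 per library, gave raw counts, a length and RPKM values per gene. The authors' RPKM values equal the counts scaled by length and table total (100% of genes above 20 counts, relative tolerance 1e-04) and served only for that check. The submitters' processing notes name HOMER and hg19. The sources used here do not state the aligner, counter, annotation or use of strand. Deposited counts of shFOXA2 and shNC libraries (3 against 3) were tested with edgeR 4.0.16 in R 4.3.3 (TMM scaling, default filter, two-sided robust quasi-likelihood test, Benjamini-Hochberg adjustment over 16100 genes, threshold 0.05), after testing on simulated data. The simulated counts had the same spread for every gene, smaller than that of these libraries, so false calls at the real spread were not checked. CPM and RPKM in the text are TMM-scaled and computed here. The SE is the log2 fold change divided by the square root of F. SW620 and SW480, 1 library each, were compared by ratio, with a pseudocount of 1 CPM for log2 values and 20 counts as minimum. Replicates differed by more than counting noise (chi-square per degree of freedom 1.67 to 4.59), and the biological coefficient of variation was 6.59%. The chi-square value was 3.97 to 4.59 in pairs with replicate 1. Between replicates 2 and 3 it was 1.67 in shFOXA2 and 1.74 in shNC.

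GENCODE v29 on GRCh38 supplied locations, GC content, overlaps and 3' UTRs, on another build than the notes name, and RefSeq (GRCh38.p14) supplied promoters. Members and lists were chosen with earlier results of these data known. By rule, the text names the 8 largest rises and falls among called members, the 5 highest and lowest levels, the 5 highest and lowest line ratios with at least 100 counts, the stalk, MRPS18 paralogs, MRPS36 and up to 3 called genes per other list; other genes were named after their values were seen. Alternatives covered scaling, filter, test (DESeq2 1.42.0, limma-voom 3.58.1), block, repeated symbols, fold, pseudocount and left-out libraries; removal of length and GC trends was added after seeing the data.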

Additional observations from a re-analysis of the deposited data

How the results depend on the processing

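The median log2 fold change of the mitochondrial ribosomal protein genes stayed below 0 under every alternative run, from -0.13 with no filter on low counts to -0.0814 without shFOXA2 replicate 1, and falls outnumbered rises in each. The number that rose, 8 as reported, was 4 with no filter, 4 with the DESeq2 Wald test and 5 with length and GC trends removed, and 3 to 7 when 1 library was left out. Over all genes, 3095 of 16100 rose as reported, 2699 of 28457 with no filter and 2412 of 16100 with the DESeq2 Wald test. That number was 2702 of 16100 with those trends removed, and 2502 to 2813 when 1 library was left out. With each library left out, 21 to 28 genes fell and the median was -0.12 to -0.0814. Over all genes, 2796 to 3092 fell in these fits, against 3185 as reported. With the replicate block, 7 rose and 28 fell, with MRPL15 and MRPL9 no longer called and MRPL28 called. Of all 16100 genes, 3022 rose and 3118 fell with the block. Deviations of same-numbered libraries had correlations of -0.0468 to -0.00443, and those of other pairs -0.0325 to 0.0407. In both groups replicate 1 differed more from the others than replicates 2 and 3 did from each other. A batch shared by libraries of the same number was not tested. With total counts as the scale, 6 rose and 30 fell, and of all 16100 genes 2896 rose and 3317 fell. With length and GC trends removed, 29 fell (3184 over all genes), MRPS26 changed sign to 0.0111, 10 calls were lost and 8 gained. The DESeq2 Wald test called 20 falls and 4901 genes in all, against 6280 as reported. Between the untreated lines, a fold of 2 left 1 gene higher and 2 lower in SW620. Over single genes and alternatives of the hairpin comparison, 972 values kept their side of the threshold and, where called, their direction, 73 were no longer past it, 18 passed it newly and 1 called value changed sign. Between the lines, 443 such values moved by less than their counting error, 13 moved by more and 0 at 1.5-fold or over changed sign. The cause of these changes was not tested. Depth limits the hairpin comparison most in shFOXA2 replicate 2, where the lowest gene had 132 counts, and the line comparison is limited by 1 library per line.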
